A study of Solanum tuberosum with 9 samples.

Results

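In one library of stored potato tubers, 263 gene models stood at 3 or more times their level in any of the other 8 libraries. The library is control day 40 replicate 2, from untreated tubers at day 40 of storage, and the 263 models are those with an identifier starting Soltu.DM, a ratio of at least 3 to the highest other library and a mean over all libraries of at least 1 CPM (counts scaled to the library's total). They make up 1.43% of the 18445 Soltu.DM models that reach this mean, and the deposited tables list 34239 models in all. Because the level in control day 40 replicate 2 chose them, that level is given as a description and was not tested. Apart from an upper limit, the rule sets neither the level of the same models in the other 8 libraries nor the order of those libraries.

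Messenger RNA of commercially bought tubers of Solanum tuberosum cultivar Keshan was sequenced in 3 groups of 3 libraries: tubers under REO fumigation at day 40, control tubers at day 40 and control tubers at day 0. REO stands for rosemary essential oil, a mixture of volatile compounds. Fumigated and control tubers were kept sealed under the same conditions. The libraries are described as biological replicates, and the number of tubers per library is not stated. A p-value measures the spread between the libraries in its fit, and the main fit leaves out control day 40 replicate 2.

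A harvested potato tuber first passes through dormancy, in which its buds, the eyes, do not grow, and later sprouts. It is a swollen stem that holds starch-storing parenchyma, vascular tissue, a corky outer skin (the periderm) and meristems in the eyes. RNA from a tuber sample is a mix of these tissues, and in such bulk samples fewer cells of a type and less RNA per cell cannot be told apart. The files do not pair identifiers with gene names, and a RefSeq gene table for assembly SolTub_3.0 held 0 of them, so no function, tissue or cell type is given to any model and tuber markers could not be checked. Models are named by identifier and by the chromosome number within it.

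Library totals ranged from 29330673 to 36901701 counts, and that of control day 40 replicate 2 was 35952180. This library had 26805 models with at least 1 count, against 23747 to 25195 in the other 8, and the part of this wider detection in the results below was not tested. A count of 3, used here as the detection floor of a library, corresponds to 0.0813 to 0.102 CPM and covers counting error only. The same rule was applied to every library in turn. It found 263 models for control day 40 replicate 2, 17 for control day 0 replicate 2, 4 for control day 40 replicate 1 and 3 for control day 0 replicate 3. It found 0 for each of the 3 REO libraries and for the remaining control libraries. Submitter-added models, which the rule leaves out, gave 0 of 921 that reach the mean.

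The members were mostly models of low to moderate level. In control day 40 replicate 2 they had a median of 12.0 CPM, with quartiles of 7.68 and 21.3 CPM and a range of 3.78 to 416 CPM, and 153 of them reached 10 CPM. Many reached the mean of 1 CPM through that library alone. Their medians in the other libraries were 0.477, 0.590 and 1.73 CPM in REO replicates 1, 2 and 3, 0.840 and 0.512 CPM in control day 40 replicates 1 and 3, and 0.586, 1.13 and 0.766 CPM in control day 0 replicates 1, 2 and 3. In the other 18182 models that reach the mean these medians were 12.5 to 14.8 CPM, so the members lay lower and their folds between libraries rest on fewer counts. Control day 40 replicate 2 had the highest median in those models as well, at 16.1 CPM. Control day 0 replicate 2 followed at 14.8 CPM and REO replicate 3 at 14.6 CPM, so the same 3 libraries led there. The members summed to 6109.8 CPM in control day 40 replicate 2, which is 0.611% of that library's counts, and to 363 to 479 CPM in 6 of the other libraries. REO replicate 3 and control day 0 replicate 2 lay above these 6, at 1128 and 675 CPM.

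**Figure D1:**
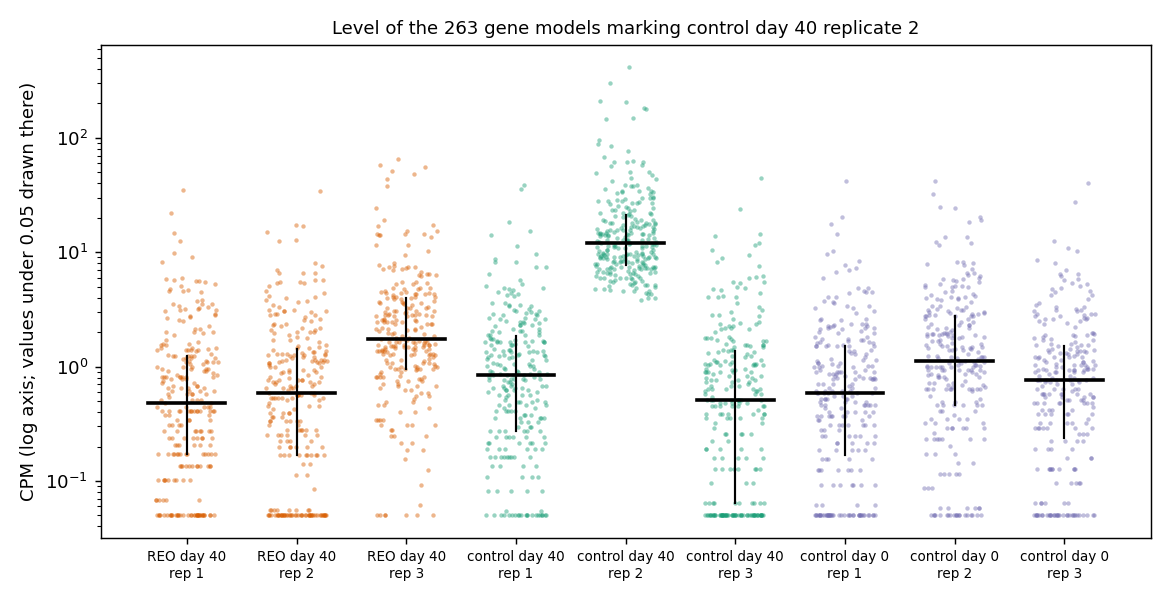
Each point is one of the 263 members in one library, in CPM on a log axis, with values under 0.05 CPM drawn at 0.05. The black bar is the median and the black line spans the quartiles. After control day 40 replicate 2, with a median of 12.0 CPM, the highest medians are those of REO replicate 3 at 1.73 CPM and control day 0 replicate 2 at 1.13 CPM.

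The ratio of control day 40 replicate 2 to the highest other library had a median of 4.37 and quartiles of 3.49 and 6.24. It was under 4 in 108 members, at least 5 in 107, at least 10 in 33 and at least 20 in 17. The models nearest the limit had ratios of 3.007 and 3.011 just inside it and of 2.996 and 2.989 just outside. These had 6.59 and 4.31 CPM in control day 40 replicate 2 inside the limit and 35.7 and 13.7 CPM outside it. Between 2.7 and 3 there were 64 further models, so the limit cuts through a continuous range. A further 1795 models passed the ratio with a mean under 1 CPM and are not counted.

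Detection was uneven. Of the 263 members, 172 had counts in all 9 libraries, a share of 65.4%, against 98.9% of the other models that reach the mean. Counts of 0 were fewest in REO replicate 3, with 7 members, and in control day 0 replicate 2, with 17. They were most frequent in control day 40 replicate 3, with 58, and in REO replicate 2, with 47. At the other end, 46 members had at least 1 CPM in every one of the other 8 libraries, and 36 stayed under 1 CPM in all 8.

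The members with the most counts in control day 40 replicate 2 show both kinds of model. Soltu.DM.05G024470 on chromosome 5 had 416 CPM in control day 40 replicate 2, against 0.677 and 0.288 CPM in control day 40 replicates 1 and 3. It had 1.47, 0.534 and 56.0 CPM in REO replicates 1, 2 and 3, against 0.555, 0.463 and 0.479 CPM in control day 0 replicates 1, 2 and 3. It was thus at 1.47 CPM or less in 7 libraries and well above that in 2. On the length-scaled FPKM scale of the second deposited table it stood at 725 in control day 40 replicate 2, the highest value of any member there, and at 96.3 in REO replicate 3.

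Soltu.DM.07G013810 on chromosome 7 was present everywhere. It had 303 CPM in control day 40 replicate 2, against 35.9 and 24.04 CPM in replicates 1 and 3 of the same group. Its level was 22.0, 16.9 and 65.2 CPM in REO replicates 1, 2 and 3, against 17.6, 32.4 and 12.6 CPM in control day 0 replicates 1, 2 and 3. In each of the 2 other groups the highest library of this model was again REO replicate 3 or control day 0 replicate 2. Of the 8 members with at least 100 CPM in control day 40 replicate 2, 8 had REO replicate 3 as the highest of the other libraries.

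A few members were nearly restricted to control day 40 replicate 2. Among members above 3 counts in at least 1 other library, Soltu.DM.09G010750 on chromosome 9 had the largest ratio, 95.6, and Soltu.DM.04G035610 on chromosome 4 had the next, 93.6. Soltu.DM.09G010750 had 15.5 CPM in control day 40 replicate 2, 0.163 CPM in control day 40 replicate 1, 0.102 CPM in REO replicate 1 and 0 counts in the other 6. Soltu.DM.04G035610 had 14.5 CPM in control day 40 replicate 2, 0.155 CPM in REO replicate 3 and 0 counts in the other 7. Soltu.DM.10G018780 and Soltu.DM.11G002650, named after their values were seen, had 445 and 338 counts in control day 40 replicate 2 and 0 counts in the other 8. Against a floor of 3 counts per library they were at least 121-fold and at least 91.9-fold higher there.

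Graded by their level as a percentage of control day 40 replicate 2, the members stood highest in REO replicate 3, with a median of 18.1% and quartiles of 9.55% and 24.8%. Control day 0 replicate 2 came second, at 10.5% with quartiles of 3.64% and 19.8%. The remaining 6 libraries lay close together, at 6.07% in control day 40 replicate 1, 5.79% in control day 0 replicate 3, 5.21% in REO replicate 2, 4.82% in control day 0 replicate 1, 4.43% in control day 40 replicate 3 and 3.71% in REO replicate 1. By the rule no value could pass 33.3%. Each place in this order is a single library, so neighbouring places cannot be set against a replicate error. The quartile ranges of the 6 low libraries overlap one another and those of the upper 2 libraries.

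Which library came next after control day 40 replicate 2 differed from the other expressed models. REO replicate 3 was the highest of the other 8 in 132 members, or 50.2%, and in 14.7% of the 18182 other models that reach the mean. Control day 0 replicate 2 was highest in 60 members, or 22.8%, and in 18.2% of the other models. Control day 40 replicate 1 followed with 33 members, or 12.5%, and 17.2% of the other models. The other 5 libraries were each highest in 4 to 12 members. The share of REO replicate 3 was thus over 3 times its share among other models, while that of control day 0 replicate 2 was close to it.

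**Figure D2:**
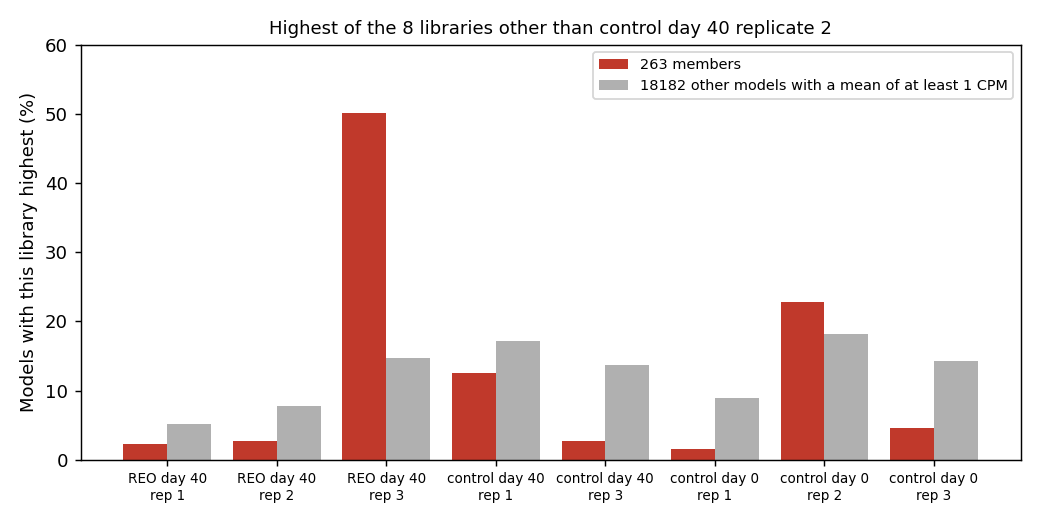
Bars give the percentage of models in which a library is the highest of the 8 other than control day 40 replicate 2, for the 263 members in red and for the 18182 other models with a mean of at least 1 CPM in grey. REO replicate 3 is highest in 50.2% of members and 14.7% of the other models, and control day 0 replicate 2 in 22.8% and 18.2%.

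Within the REO group, replicate 3 stood above replicates 1 and 2 in 221 of 263 members, or 84.0%, against 45.6% of the other models. Its fold over the mean of replicates 1 and 2, with values under 3 counts set to that floor, had a median of 2.82 in the members and quartiles of 1.54 and 5.96. In the other models the median was 1.05. A fold of at least 2 was reached by 62.0% of the members and 4.73% of the other models. The other models lay at higher levels and were not matched to the members, whose folds rest on fewer counts. Part of this gap may be counting error, which was not tested. Replicates 1 and 2 had median folds of 0.430 and 0.547 over the mean of the other 2 REO libraries. That mean includes replicate 3, so these values largely restate its excess. By median level the members stood at 0.477, 0.590 and 1.73 CPM in REO replicates 1, 2 and 3, which is 1 higher and 2 lower libraries. The members' sum in REO replicate 3 was 2.95 times the mean of replicates 1 and 2, and 2.78 times without the 2 members with the most counts.

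Among members with at least 1 CPM in REO replicate 3, those in which it stood furthest above the remaining 7 libraries were on chromosome 5. Soltu.DM.05G024470, described above, was at 38.2 times the highest of them. Soltu.DM.05G009050 was at 33.2 times, with 206 CPM in control day 40 replicate 2 and 48.7 CPM in REO replicate 3. It had 1.47 and 0.281 CPM in REO replicates 1 and 2, 1.38 and 0.0960 CPM in control day 40 replicates 1 and 3, and 0, 0.0578 and 0.128 CPM in control day 0 replicates 1, 2 and 3. In REO replicate 3 these models reached 13.5% and 23.6% of control day 40 replicate 2.

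Within the day 0 group the order was the same in kind and smaller in size. Control day 0 replicate 2 stood above replicates 1 and 3 in 167 members, or 63.5%, against 45.7% of the other models. Its median fold over the mean of replicates 1 and 3 was 1.50 in the members, with quartiles of 0.921 and 2.74, and 1.10 in the other models. A fold of at least 2 was reached by 36.1% of the members and 5.72% of the other models, which again were not matched for level. The sum in control day 0 replicate 2 was 1.70 times the mean of replicates 1 and 3. Within the control group at day 40, replicate 1 was above replicate 3 in 163 members, or 62.0%, against 51.5% of the other models. Here too folds of at least 2 were more frequent in the members, in 28.5% for replicate 1 over replicate 3 against 4.77% of the other models, and in 7.22% for replicate 3 over replicate 1 against 1.72%.

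Soltu.DM.06G031140 on chromosome 6 and Soltu.DM.12G024040 on chromosome 12 had control day 0 replicate 2 furthest above the remaining 7 libraries, at 6.16 and 4.86 times the highest of them. Soltu.DM.06G031140 had 9.71 CPM in control day 40 replicate 2, against 0.0813 and 0.384 CPM in control day 40 replicates 1 and 3. It had 0.341, 0.253 and 0.216 CPM in REO replicates 1, 2 and 3, and 0.309, 2.95 and 0.479 CPM in control day 0 replicates 1, 2 and 3. Here REO replicate 3 did not stand above its replicates, and the 10, 9 and 7 counts in REO replicates 1, 2 and 3 are too few to order them. Soltu.DM.12G024040 had 38.8 CPM in control day 40 replicate 2, 8.24 CPM in control day 0 replicate 2 and 1.55 CPM in REO replicate 3. Its other 6 libraries ranged from 0.0640 to 1.70 CPM.

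**Figure D3:**
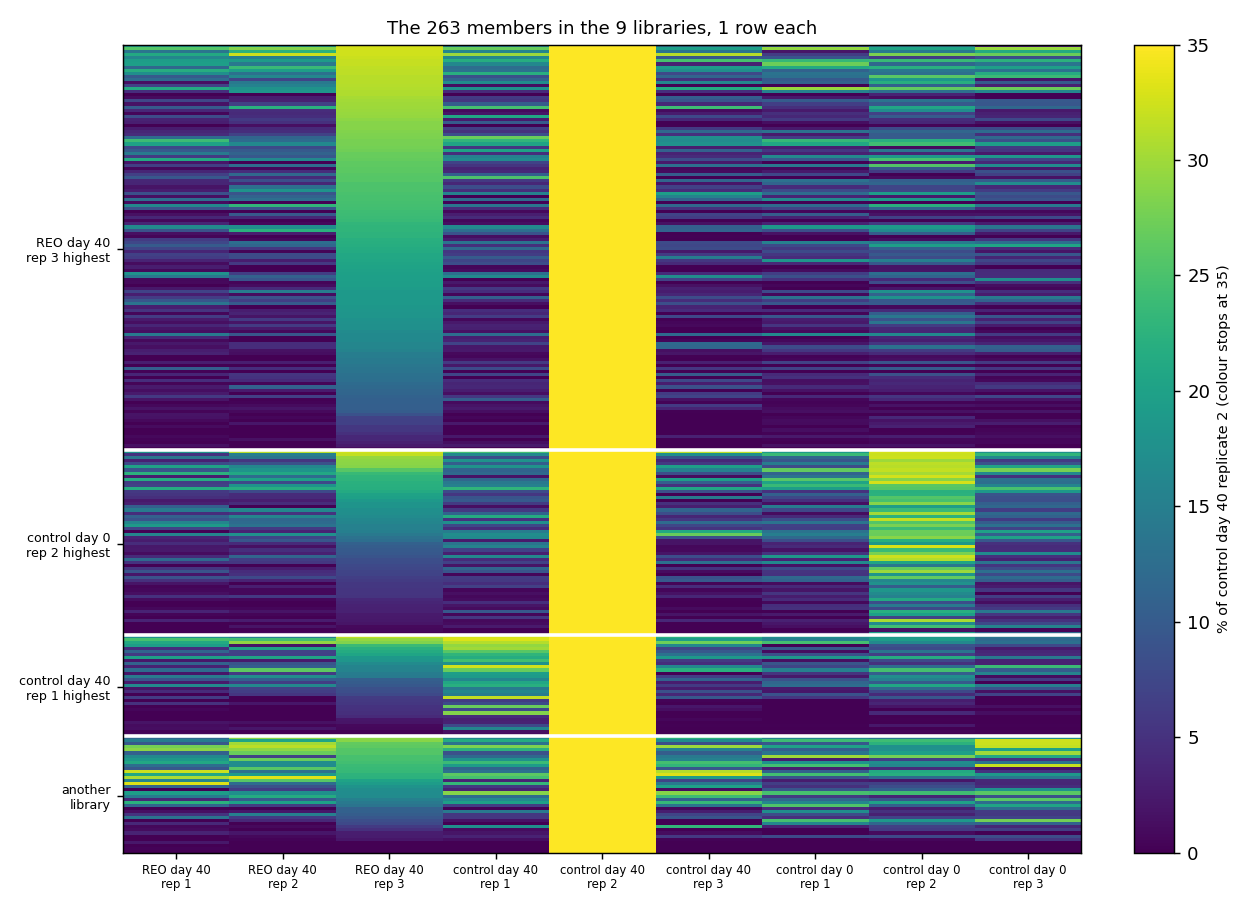
Each row is one of the 263 members and each column a library; colour gives the level as a percentage of control day 40 replicate 2 and stops at 35%. Rows are grouped by the highest of the other 8 libraries, with 132 members led by REO replicate 3, 60 by control day 0 replicate 2, 33 by control day 40 replicate 1 and 38 by another library or by none, and sorted by REO replicate 3 within each group.

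The 2 libraries were raised partly in the same and partly in different members. Singly, REO replicate 3 stood above its replicates in 84.0% of the members and control day 0 replicate 2 in 63.5%. Both stood above their own replicates in 144 members, or 54.8%, against 19.5% of the other models. Whether this joint share exceeds what the single shares give was not tested. REO replicate 3 alone stood above its replicates in 77, or 29.3%, which is near the 26.1% of the other models. Control day 0 replicate 2 alone did so in 23, or 8.75%, against 26.2% of the other models. Neither did so in 19, or 7.22%, against 28.2%. Both were among the 2 highest of the 8 in 70 members, or 26.6%, against 4.91% of the other models. Across the 263 members, the log2 fold of REO replicate 3 over its replicates and that of control day 0 replicate 2 over its own were hardly related, with a Pearson r of 0.03 and a Spearman rho of 0.04. This correlation runs over gene models, which are not independent replicates and share libraries and the floor, and the rule caps the level in both libraries.

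**Figure D4:**
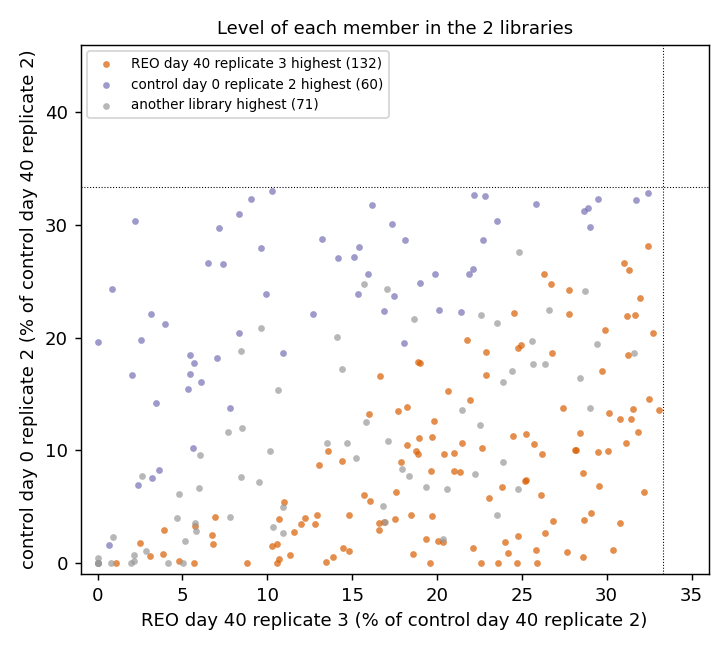
Each point is a member, placed by its level in REO replicate 3 on the horizontal axis and in control day 0 replicate 2 on the vertical axis, both as a percentage of control day 40 replicate 2. Dotted lines mark the limit of 33.3% set by the rule. Colours show which library is the highest of the other 8: REO replicate 3 in 132 members, control day 0 replicate 2 in 60 and another library or none in 71. Many members led by REO replicate 3 lie near 0 on the vertical axis.

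Members that were low in the 6 remaining libraries showed the difference between these 2 most clearly. In 105 members all 6 were under 10% of control day 40 replicate 2. The median member of this kind was at 14.6 CPM in control day 40 replicate 2, and the median of its 6 low libraries was 0.148 CPM. REO replicate 3 reached at least 10% in 59 of the 105, with a median of 11.6% and quartiles of 4.16% and 19.6%. Control day 0 replicate 2 reached 10% in 24, with a median of 3.57% and quartiles of 0.773% and 9.66%. REO replicate 3 was the highest of the 8 in 68 of the 105 and under 1% in 8. In the other 158 members, where at least 1 of the 6 reached 10%, the medians were closer, 21.5% in REO replicate 3 and 16.6% in control day 0 replicate 2. These kinds were set after the values were seen.

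Members led by REO replicate 3 had a median of 14.6 CPM in control day 40 replicate 2 and a median ratio of 4.63. Those led by control day 0 replicate 2 had 10.6 CPM and 3.96, and those led by control day 40 replicate 1 had 9.74 CPM and 5.11. In members led by REO replicate 3, control day 0 replicate 2 still had a median of 0.983 CPM, against 0.524 and 0.575 CPM in control day 0 replicates 1 and 3. In members led by control day 0 replicate 2, REO replicate 3 had 1.31 CPM, against 0.460 and 0.661 CPM in REO replicates 1 and 2. In both classes the library that did not lead still had a median above those of its replicates.

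The order within the other groups also ran on below the limit of the rule. Over all Soltu.DM models that reach the mean, REO replicate 3 stood above replicates 1 and 2 in 32.5% of the 1959 models with a ratio under 0.5, in 37.6% of the 11438 at 0.5 to 1, in 67.2% of 3795 models at 1 to 1.5, in 79.8% of 644 at 1.5 to 2 and in 84.7% of 346 at 2 to 3. In the members the share was 82.1% of 156 at 3 to 5, 91.9% of 74 at 5 to 10 and 75.8% of 33 at 10 or more. For control day 0 replicate 2 the shares over the same steps were 44.97%, 43.2%, 50.5%, 56.7%, 59.8%, 65.4%, 67.6% and 45.5%. Both shares were thus lower in the 33 models with the largest ratios than at 5 to 10. A library with 0 counts cannot stand above its replicates, and some of these 33, such as Soltu.DM.10G018780 and Soltu.DM.11G002650, had 0 counts in both libraries. The part of such models in the lower shares was not tested.

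**Figure D5:**
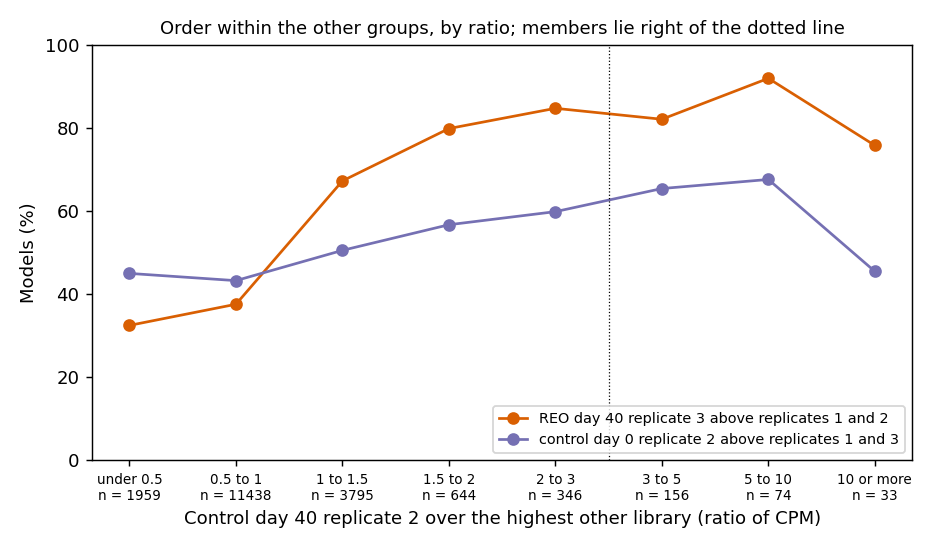
The horizontal axis sorts all 18445 Soltu.DM models with a mean of at least 1 CPM by the ratio of control day 40 replicate 2 to the highest other library, and the vertical axis gives the percentage in which REO replicate 3 stands above its 2 replicates (orange) or control day 0 replicate 2 above its own (violet). The orange line climbs to 91.9% at a ratio of 5 to 10 and the violet line to 67.6%. Models right of the dotted line are the members.

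The groups were compared without control day 40 replicate 2, whose level chose the members. By the rule it is the highest control day 40 library for every member, so leaving it out lowers that group in advance. Both comparisons with control day 40 therefore cannot show whether storage or REO moved these models. One edgeR quasi-likelihood fit to the other 8 libraries tested 22917 models, and 236 of the 263 members passed its filter on low counts. For REO day 40 against control day 0, 4 of the 236 members were higher and 0 lower at a Benjamini-Hochberg adjusted p under 0.05, or 1.69%, where 6.24% of all models tested were called. By direction the shares of all models were 3.06% higher and 3.18% lower. For REO day 40 against control day 40, 1 member was higher and 0 lower, where 0.764% of all models were called, 0.698% higher and 0.0655% lower. For control day 40 against control day 0, 0 members were higher and 1 was lower, where 4.3% of all models were called, 1.73% higher and 2.57% lower. The members lay at lower levels than the other models in these 8 libraries, so the shares were not read against each other. At an unadjusted p under 0.05 the fit had 42, 26 and 41 members in these 3 comparisons, or 17.8%, 11.02% and 17.4%, where 23.6%, 11.6% and 26.4% of all models passed. DESeq2 called 14, 8 and 18 members at an adjusted p under 0.05, where it called 14%, 4.14% and 15.6% of all models with an adjusted p.

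Of the 4 members called higher with REO than at day 0, 3 had REO replicate 2 as the highest of the other 8 libraries and 1 had REO replicate 3. Soltu.DM.05G022700 on chromosome 5 had 3.51, 5.76 and 4.51 CPM in REO replicates 1, 2 and 3, against 0.586, 0.463 and 0.862 CPM in control day 0 replicates 1, 2 and 3. Its 3 REO libraries lay above all day 0 libraries, with a log2 fold change of 2.76 ± 0.41 (SE) and an edgeR adjusted p of 0.00910. With all 9 libraries in the fit the change was 2.77 and the call was lost (edgeR adjusted p = 0.215). The 3 groups share one estimate of the spread, and by the rule control day 40 replicate 2 widens it for every member. Of 19 alternative settings, 18 kept the call, and the fit with all 9 libraries was the 1 that lost it. Soltu.DM.05G022700 had 22.2 CPM in control day 40 replicate 2 and 0.786 and 1.57 CPM in control day 40 replicates 1 and 3.

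Soltu.DM.06G017770 on chromosome 6 had 5.56, 15.0 and 13.6 CPM in REO replicates 1, 2 and 3, against 1.64, 2.46 and 1.02 CPM in control day 0 replicates 1, 2 and 3. The groups did not overlap, and the log2 fold change was 2.70 ± 0.39 (edgeR adjusted p = 0.00804). With all 9 libraries in the fit it was 2.69 and the call was lost (edgeR adjusted p = 0.147), with the spread widened in the same way. Of 19 alternative settings, 18 kept this call. Of the 22917 models tested, 16.2% had their REO libraries above all day 0 libraries and 11.7% below, and of the 236 members 21 lay above and 13 below. The shares of members were 8.90% and 5.51%.

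Overlap was counted in the same way for the other comparisons. In REO day 40 against control day 40 replicates 1 and 3, 35 of the 236 members lay above and 8 below without overlap, where 15.2% of all models lay above and 21.2% below. The members' shares were 14.8% and 3.39%. In control day 40 replicates 1 and 3 against control day 0, 35 members lay above and 55 below, or 14.8% and 23.3%, where 25.1% of all models lay above and 19.6% below.

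At day 40, Soltu.DM.08G028990 on chromosome 8 had 9.00, 7.03 and 16.9 CPM in REO replicates 1, 2 and 3, against 2.95 and 2.18 CPM in control replicates 1 and 3. Its log2 fold change was 2.13 ± 0.38 (edgeR adjusted p = 0.0485). The control library left out stood at 62.9 CPM, above all 3 REO libraries, and including it gave -0.93 (edgeR adjusted p = 0.971). The direction of this model thus rests on leaving out control day 40 replicate 2. The call was also lost without any 1 of 7 of the 8 libraries, with an adjusted p of 0.0609 to 0.315, and was kept without control day 0 replicate 3.

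The member that was lower in control day 40 than in control day 0 was Soltu.DM.02G013300 on chromosome 2. It had 0.0542 and 0 CPM in control day 40 replicates 1 and 3, both under the floor, against 0.494, 1.76 and 0.766 CPM in control day 0 replicates 1, 2 and 3 (edgeR adjusted p = 0.0431). Control day 40 replicate 2 held 9.68 CPM, and including it gave a log2 difference of 1.52 (edgeR adjusted p = 0.641). The call was also lost without any 1 of 6 of the 8 libraries, with an adjusted p of 0.0524 to 0.184 (edgeR), and was kept without control day 0 replicate 1 or REO replicate 1. It was lost with only the 2 groups compared (edgeR adjusted p = 0.0809), with a replicate block (0.0902) and with limma on log2(FPKM + 1) and log2(FPKM + 0.1).

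The middle of the members' log2 differences turned on single libraries. For REO day 40 against control day 40 without replicate 2, the median over the 236 members was 0.51, with 175 of them positive, and that of all models 0.02. Leaving out REO replicate 3 as well gave a median of -0.09, with 98 of 222 members positive. For REO day 40 against control day 0 the median was 0.22 and became -0.49 without REO replicate 3. For control day 40 against control day 0 it was -0.32 and became -0.05 without control day 0 replicate 2. Leaving out control day 40 replicate 1 moved the median for REO against control at day 40 to 1.03 and that for control day 40 against day 0 to -0.76. For these comparisons with control day 0 the medians of all models were 0.00 and -0.04.

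With all 9 libraries in the fit, 0 members were called in any of the 3 comparisons, where 2.61% of the 22638 models tested were called for REO day 40 against control day 0, 0.459% for REO day 40 against control day 40 and 0.844% for control day 40 against control day 0 (edgeR quasi-likelihood test, adjusted p under 0.05). At an unadjusted p under 0.05 this fit had 5, 45 and 73 of 237 members, where 18.5%, 7.8% and 18.4% of all models passed. The 45 and 73 rest on the library that chose the members. By the rule that library also widens the spread shared by the 3 groups for every member. The 0 calls, and the 5 members for REO day 40 against control day 0, therefore do not show that changes are absent. The median log2 difference of the members was then -1.74 for REO against control at day 40 and 1.96 for control day 40 against day 0. Both directions follow from the rule, since control day 40 replicate 2 is 1 of the 3 control libraries.

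The members were spread over all 12 chromosomes. They made up 1.87% of the expressed models on chromosome 1, the highest share, with 44 members, and 0.828% on chromosome 7, the lowest, with 11. No member carried an identifier of unplaced sequence. Members were next to each other in identifier order in 7 pairs, and no run was longer than 2. Of 329 expressed models directly beside a member, 4.26% were members themselves, where members are 1.43% of all expressed models. In 3 of the 7 pairs both models had the same next-highest library. The model beside Soltu.DM.05G009050 was one of these, with 24.2 CPM in control day 40 replicate 2 and 1.67 CPM in REO replicate 3. Neighbours may be near-identical copies, and their counts are uncertain because no source says how shared reads were assigned.

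Models of the members were of ordinary size. Their length scale, derived from the ratio of count to FPKM, had a median of 1921 bases and quartiles of 1416 and 2485 bases. In the other 18182 models the median was 1757 bases and the quartiles were 1144 and 2471 bases.

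The rule was also turned round. In 26 models control day 40 replicate 2 stood at least 3 times below the lowest other library, 69.2 CPM in sum against 395 to 622 CPM in the other 8. Turned round, it found more models in 7 of the other libraries, from 33 in control day 0 replicate 2 to 212 in control day 40 replicate 3, and 19 in REO replicate 3. REO replicate 3 had the lowest sum of these 8, at 395 CPM, against 570.5 and 622 CPM in REO replicates 1 and 2. It was below both of them in 17 of the 26, against 27.8% of the other expressed models. Control day 0 replicate 2 was below its replicates in 10 of the 26, against 25.6%. In the 17 models that mark control day 0 replicate 2 by the same rule, control day 40 replicate 2 was the highest of the other libraries in 7 and control day 0 replicate 3 in 7, while REO replicate 3 was highest in 1. Their sum was 548 CPM in control day 0 replicate 2, against 132 CPM in control day 0 replicate 3, 120 CPM in control day 40 replicate 2 and 59.0 CPM in REO replicate 3.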

How the data were processed

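Whole-number counts per gene model and library were deposited by the authors, with a second table of values read here as FPKM from the deposited values: in 88.5% of 17855 models with at least 20 counts in every library, the quotient of count and value factored into a gene term and a library term to within 2%. The submitters' processing notes name HISAT2 2.1.0 and DESeq2, without a role. No source here names the counter, build or annotation. The value 1 occurs 1998 times and the value 2 occurs 4901 times, so read pairs may have been counted as 2.

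CPM here is count over column total, without further scaling. Members and lists were chosen with earlier results of these data known. Folds within a group set values under 3 counts to that floor. Differences were tested with edgeR 4.0.16 (R 4.3.3; filterByExpr, TMM, 3 group coefficients, two-sided) on 8 libraries, with DESeq2 1.42.0 and limma 3.58.1 as alternatives; the fit was tested on simulated data. SE come from the F statistic. Per test comparison at most 2 higher and 2 lower members are named: adjusted p under 0.05, no overlap, at least 1 CPM in the higher group, largest change. Otherwise the 2 with the highest CPM, the largest ratio, or the largest excess in REO replicate 3 or control day 0 replicate 2 (at least 1 CPM there) are named.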

Additional observations from a re-analysis of the deposited data

How the results depend on the processing

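The number of members, 263, became 609 at a ratio of 2, 107 at a ratio of 5, 440 at a mean of 0.5 CPM, 54 at a mean of 5 CPM and 172 with FPKM in place of CPM, and 278 to 389 when another library was left out. It fell to 197 with TMM-scaled CPM and to 204 with DESeq2 size factors, so part of the set depends on how libraries are scaled. Under the first 4 of these settings REO replicate 3 was the highest other library in 283, 58, 209 and 34 members, against 132, and leaving out a library gave 141 to 191. Control day 0 replicate 2 was highest in 159, 18, 96 and 10, in 39 with TMM-scaled CPM and in 33 with FPKM, against 60; leaving out a library gave 61 to 115, the highest without REO replicate 3. As shares, REO replicate 3 led 46.5% to 63.0% and control day 0 replicate 2 led 16.8% to 29.6% of members over all settings. The median of REO replicate 3 was 29.1% at a ratio of 2, 10.6% at a ratio of 5 and 17.8% to 18.4% with a library left out. That of control day 0 replicate 2 was 22.0% and 4.17% at ratios of 2 and 5, and 9.99% to 12.1% with a library left out. Ratio limits cap these values by construction.

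The causes of the shifts in calls among members were not tested, and calls are given as higher and lower in brackets. For REO day 40 against control day 0 the 4 calls became 14 with DESeq2 (10 and 4), 0 with all 9 libraries, 14 (11 and 3) and 0 for members at ratios of 2 and 5, and 3 to 7 with a library left out, the 7 (4 and 3) without REO replicate 3. For REO against control at day 40 the 1 call became 8 with DESeq2 (7 and 1), 0 with RLE scaling, library size alone, all 9 libraries, only the 2 groups compared and limma on log2(FPKM + 0.1), 2 with limma on log2(FPKM + 1) (1 and 1), 2 (2 and 0) and 0 at ratios of 2 and 5, and 0 to 1 with a library left out. The 1 call without REO replicate 3 was lower, against 1 higher with all 8 libraries. For control day 40 against day 0 the 1 lower call became 18 with DESeq2 (4 and 14), 3 with upper quartile scaling or no filter (2 and 1) or limma on log2(FPKM + 1) (1 and 2), 2 with RLE scaling or library size alone (1 and 1), a filter of 1 CPM in 3 libraries (2 and 0) or limma on log2(FPKM + 0.1) (0 and 2), 0 with all 9 libraries, 8 at a ratio of 2 (2 and 6), and 0 to 4 with a library left out. Of all models, DESeq2 called 14%, 4.14% and 15.6% in the 3 comparisons. With a library left out edgeR called 1.44% to 6.10%, 0.0714% to 1.38% and 0.0169% to 4.71% of them, and under the other edgeR and limma settings on 8 libraries 4.11% to 8.04%, 0.227% to 1.15% and 0.634% to 7.01%. Soltu.DM.08G028990 and Soltu.DM.02G013300 turned sign with all 9 libraries, to -0.93 and 1.52 on the log2 scale. The labels number the replicates without saying whether equal numbers pair libraries. Deviations of same-numbered libraries from their group means correlated at -0.557 to 0.328. Those of differently numbered libraries in different groups correlated at -0.414 to 0.613, the highest for control day 40 replicate 2 and REO replicate 3. A replicate block gave 4, 0 and 0 calls in the 3 comparisons, where it called 4.11%, 0.227% and 1.196% of all models. Single libraries and low counts limit every statement on the order of the libraries.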
